A study of Mus musculus with 6 samples.

Results

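The genes described are the machinery that shows peptides on MHC class I in mouse regulatory T cells (Tregs): the heavy chains H2-K1, H2-D1, H2-Q4, H2-Q7 and H2-T23, the light chain B2m, the peptide transporter genes Tap1 and Tap2, the loading chaperone Tapbp and the transactivator Nlrc5. These 10 genes were chosen by their known role, with earlier results of these data known. They come from 32285 rows in the count table, and all 10 were among the 17307 genes that passed the filter on low counts. Splenic CD4+CD25+ Tregs were sorted from C57BL/6 mice in 2 groups, WT and KO, with 3 libraries each. KO mice were ERCre Zfp335f/f, in which tamoxifen activates a Cre recombinase that removes Zfp335, a zinc finger regulator of transcription. The labels name the controls wild-type littermates, whereas the study's methods describe ERCre mice (WT) and give 1 tamoxifen scheme for mice of 6 weeks, with injections on days 1, 3 and 5 and sacrifice on day 7. Whether the WT libraries carry the Cre allele therefore cannot be told from the sources used here. The promoter that drives this Cre, and so the cells that lost Zfp335, and the number of mice behind a library are not given in the sources used here, and p values measure the spread between libraries, which may be technical.

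MHC class I carries peptides from inside the cell to its surface, where CD8+ T cells and NK cells read them. Immunoproteasomes cut the peptides, the TAP transporter (Tap1 and Tap2) moves them into the endoplasmic reticulum, tapasin (Tapbp) loads them, and a heavy chain pairs with beta2-microglobulin (B2m) before leaving for the surface. NLRC5 acts with an RFX, CREB and NF-Y complex at the promoters of class I genes, and interferons raise the pathway as a whole.

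The upstream sequence of 3 members is shown because class I promoters are known for a shared order of elements, and these members differed in their change. Each line gives the stretch from the GRCm38.p6 (RefSeq) start-site table, 5′ to 3′ on the gene's strand. Capitals mark the motifs searched on both strands: an NF-kappaB core (GGGATTCCC), an interferon response core (GAAANNGAAA), a CRE-like core (TGACG) and a reversed CCAAT box (ATTGG, or CCAAT on the other strand).
H2-K1, chr17:34000348-34000469, minus strand: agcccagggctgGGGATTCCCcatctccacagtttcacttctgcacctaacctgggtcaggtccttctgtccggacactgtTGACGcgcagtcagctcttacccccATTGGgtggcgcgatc
H2-Q7, chr17:35439011-35439154, plus strand: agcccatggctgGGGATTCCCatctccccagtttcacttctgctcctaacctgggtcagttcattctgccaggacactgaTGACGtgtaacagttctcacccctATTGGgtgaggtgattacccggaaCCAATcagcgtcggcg
B2m, chr2:122147536-122147650, plus strand: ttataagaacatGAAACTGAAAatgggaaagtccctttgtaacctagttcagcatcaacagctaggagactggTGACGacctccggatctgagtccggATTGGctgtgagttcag

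Of the 10 members, 8 had a start in the table, and its 250 upstream bases were searched. H2-K1 had 2 starts, of which the first is shown above. Before the second start, a CCAAT box stood at -6 to -2, past the end of the stretch shown. The NF-kappaB core was found for H2-K1, H2-D1 and H2-Q7, and in 0.301% of all 32851 upstream stretches of that length. A CRE-like core followed by the reversed CCAAT box, with starts 24 or 25 bases apart, stood upstream of H2-K1, H2-D1, H2-Q7 and B2m, against 0.721% of all stretches for a spacing of 10 to 35. H2-Q4, which rose as H2-Q7 did, held neither the NF-kappaB core nor this spaced pair. The interferon response core had exact matches for B2m and H2-T23, and in 2.98% of all stretches. Neither gene was called changed. The bases agtttcacttct, which this core does not match, stood upstream of H2-K1, H2-D1, H2-Q4 and H2-Q7. These bases were not among the motifs chosen for the search, and their share of all stretches was not counted. Other forms of an interferon response element were not searched. The single cores are common, with TGACG in 17.8% and ATTGG in 33.8% of stretches. Upstream here means before the RefSeq start. By the GENCODE annotation, the stretches around the matches of H2-D1 (146 of 146 bases) and H2-T23 (101 of 101) lay within exons of those genes. The stretch searched for Tapbp lay inside the Tapbp gene. A match describes these letters and not a bound site, and the lack of an exact match does not show that an element is absent.

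Depth was 133283969 to 209041812 counts per library, and the TMM scaling factors of edgeR lay between 0.987 and 1.014. Levels are given as CPM, counts scaled to a common library size by edgeR's cpm function. Genes were called changed at an adjusted p under 0.05 (edgeR, quasi-likelihood, Benjamini-Hochberg over all 17307 genes), by which 2082 genes (12%) were higher and 2088 (12.1%) lower in KO. Zfp335 fell from 115 to 124 CPM in WT to 14.3 to 15.1 CPM in KO and was called lower (log2 fold change -3.02), the direction its label gives. The sort was also examined with marker genes. The Treg factor Foxp3 had 1119 to 1154 CPM in WT and 1046 to 1062 CPM in KO and was called lower (log2 fold change -0.11), as was the CD25 gene Il2ra (-0.15). Ctla4 was higher (0.65), and Cd3e (-0.04), Cd4 (0.03) and Ikzf2 (-0.09) were not called. Xist RNA was 0.187 to 0.424 CPM in WT and 124 to 145 CPM in KO. The summed RNA of 4 Y-linked genes (Ddx3y, Uty, Kdm5d and Eif2s3y) was 202 to 215 CPM in WT and 171 to 176 CPM in KO. Ddx3y, Uty and Kdm5d were lower in every KO library, whereas Eif2s3y averaged 46.6 CPM in WT and 46.9 CPM in KO. Sex makeup and genotype therefore cannot be told apart for any difference below.

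In KO Tregs, 4 of the 5 heavy chain genes rose, by 13.2% to 29.7%, while B2m, both TAP genes, Tapbp, Nlrc5 and H2-T23 were not called changed. No member was called lower. The 4 higher calls of 10 members stand beside 12% of all genes called higher. Because the members were chosen with earlier results of these data known, this comparison is a description and not a test. The median log2 fold change (KO minus WT) was 0.014 over the 10 members and -0.0042 over all genes tested. By the cutoffs that the study's methods give for Foxp3Cre mice, which ask for a 1.5-fold change, 0 of 10 members were called, beside 6.95% of all genes. The heavy chains share sequence, so the members are not independent of each other.

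**Figure D1:**
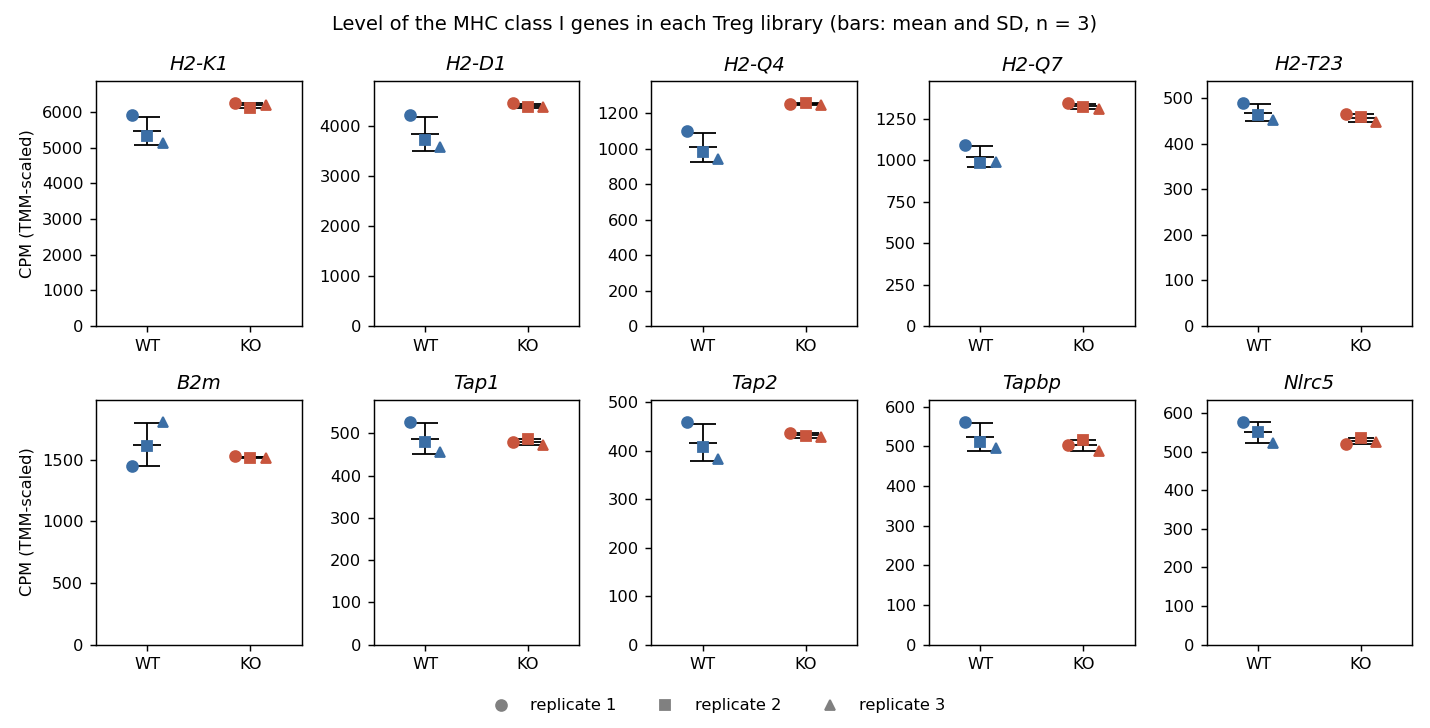
Level of each member in each Treg library, in TMM-scaled CPM from 0, with WT in blue and KO in red, a symbol for each replicate number, and the mean with SD over 3 libraries in black. All 3 KO libraries lie above all 3 WT libraries for H2-K1, H2-D1, H2-Q4 and H2-Q7, and the groups overlap for the other members.

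H2-K1 and H2-D1 encode the classical heavy chains that present peptides to CD8+ T cells. H2-K1 had 5906, 5336 and 5144 CPM in WT libraries 1, 2 and 3 and 6244, 6119 and 6185 CPM in KO libraries 1, 2 and 3. H2-D1 had 4204, 3702 and 3573 CPM in WT and 4443, 4378 and 4372 CPM in KO, in the same order of libraries. For both genes the groups did not overlap, and WT library 1 was the highest control, closer to the KO libraries than to the other two controls. H2-K1 rose from 5462 ± 396 to 6183 ± 62.3 CPM (SD, n = 3 each), a log2 change of 0.18 with SE 0.045 (adjusted p = 0.0107, edgeR). H2-D1 rose from 3826 ± 334 to 4398 ± 39.3 CPM (SD, n = 3 each), a log2 change of 0.20 with SE 0.050 (adjusted p = 0.0114, edgeR). Both calls depended on single libraries. Without WT library 2 both had an adjusted p of 0.0681 in edgeR, and without KO library 1 that of H2-K1 was 0.0504. The 2 transcripts kept close proportions to each other, with a ratio of H2-K1 to H2-D1 CPM of 1.43 ± 0.021 in the controls and 1.41 ± 0.0087 in KO (SD, n = 3 each, two-sided exact permutation p = 0.3).

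H2-Q4 and H2-Q7 encode nonclassical heavy chains, of which H2-Q7 encodes a Qa-2 antigen. H2-Q4 had 1098, 981 and 944 CPM in the WT libraries and 1252, 1256 and 1247 CPM in the KO libraries. H2-Q7 had 1092, 983 and 987 CPM in WT and 1342, 1320 and 1309 CPM in KO. The lowest KO library exceeded the highest WT library for both. H2-Q4 rose from 1008 ± 80.7 to 1251 ± 4.46 CPM (SD, n = 3 each), a log2 change of 0.31 with SE 0.047 (adjusted p = 0.000317, edgeR). H2-Q7 rose from 1021 ± 61.8 to 1324 ± 16.7 CPM (SD, n = 3 each), a log2 change of 0.37 with SE 0.041 (adjusted p = 1.87e-05, edgeR). These are the largest changes among the members, and 24.2% of all genes tested had a larger absolute log2 fold change than H2-Q7. Both calls held in each of the 20 alternative analyses, with log2 fold changes of 0.27 to 0.38 for H2-Q4 and 0.34 to 0.42 for H2-Q7. H2-Q4 and H2-Q7 together made 17.1%, 17.1% and 17.4% of the summed CPM of the 5 heavy chains in the WT libraries and 18.9%, 19.0% and 18.9% in the KO libraries. This share did not overlap between groups (two-sided exact permutation p = 0.1, the smallest that 3 against 3 libraries allow). Every KO library lay above every WT library for 19.3% of all single genes tested, and how often such sums of genes separate was not counted.

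H2-T23 encodes Qa-1, a nonclassical heavy chain that presents signal peptides of other class I chains to NK cell receptors. H2-T23 had 488, 463 and 452 CPM in WT and 464, 458 and 447 CPM in KO. The groups overlapped, with a log2 change of -0.04 with SE 0.036 (adjusted p = 0.529, edgeR). It was the only one of the 5 heavy chains without a call.

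The counts of H2-Q7 and H2-Q4 cannot be fully assigned to these genes. In the GENCODE annotation of GRCm38, 26.5% of the 50-base stretches of H2-Q7 transcripts also occurred in other genes, with 14.0% of all stretches in H2-Q10, 8.74% in H2-Q5 and 6.31% in H2-Q6. For H2-Q4 the share was 36.4%, with 15.3% in the antisense gene Gm11131, which overlaps it, and 9.68% in H2-Q6. The shares were 9.63% for H2-K1, 12.8% for H2-D1, 14.5% for H2-T23 and 0% for B2m. The study's methods describe HISAT2 reporting 1 alignment per read, with StringTie for expression, for Tregs of Foxp3Cre mice, and whether the present table was made that way, and whether strand was used, is not given in the sources used here. The same holds for Tapbp, of whose stretches 20.3% occur in the antisense gene Gm19412.

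The heavy chain genes and the TAP genes lie in the MHC on chromosome 17 of GRCm38, which the submitters' notes call mm10. H2-K1 (ENSMUSG00000061232) lies on the minus strand from 33996017 to 34000347, and H2-D1 (ENSMUSG00000073411) on the plus strand from 35262730 to 35267499. H2-Q4 (ENSMUSG00000035929) runs from 35379617 to 35385290 and H2-Q7 (ENSMUSG00000060550) from 35439155 to 35443773, both on the plus strand. H2-T23 lies at 36029773 to 36032855 on the minus strand. Tapbp lies at 33915899 to 33929292, Tap1 at 34187553 to 34197225 and Tap2 at 34203527 to 34216321, all on the plus strand. Tap1 overlaps Psmb9 on the other strand. B2m lies on chromosome 2 from 122147686 to 122153083 and Nlrc5 on chromosome 8 from 94434356 to 94527272, both on the plus strand. The called and the uncalled members were interspersed on chromosome 17, with Tap1 and Tap2 between H2-K1 and H2-D1.

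B2m, the light chain shared by the class I heavy chains, was not called changed. It had 1452, 1608 and 1807 CPM in WT libraries 1, 2 and 3 and 1526, 1511 and 1516 CPM in KO. The KO libraries lay inside the wide WT range, in which library 1 was the lowest, the reverse of its place for the heavy chains. The log2 change was -0.10 with SE 0.067 (adjusted p = 0.354, edgeR). Without WT library 1 it was -0.17 with an adjusted p of 0.00473. The 5 heavy chains summed to 8.81, 7.13 and 6.14 times the CPM of B2m in the WT libraries and to 9.01, 8.96 and 8.95 times in the KO libraries. The mean ratio was 7.36 ± 1.35 in the controls and 8.97 ± 0.034 in KO (SD, n = 3 each), without overlap (two-sided exact permutation p = 0.1), and WT library 1 lay nearer to KO than to the other controls. Of all single genes tested, 19.3% had every KO library above every WT library, and the share among such ratios was not counted.

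WT library 1 also stood apart from the other controls in the dependence of all genes on GC content. Over 10961 genes, the deviation of a library from each gene's mean log2 CPM had a Spearman correlation with GC content of 0.28, -0.25 and -0.32 in WT libraries 1, 2 and 3 and of 0.25, 0.19 and -0.06 in KO libraries 1, 2 and 3, a description across genes within a library. B2m has a GC content of 41.2% and the other members 52.4% to 58.3%. With the GC trend removed from each library, B2m stood at 1504, 1569 and 1706 CPM in WT and 1565, 1546 and 1508 CPM in KO. Its SD over 3 libraries went from 178 to 103 CPM in WT and from 7.46 to 29.2 CPM in KO. The log2 fold change became -0.05 for B2m, 0.15 for H2-K1, 0.18 for H2-D1, 0.29 for H2-Q4 and 0.35 for H2-Q7, and the 4 heavy chain calls were kept. In that fit Tapbp was called lower, at a log2 fold change of -0.10 (edgeR adjusted p = 0.0215). The source of the GC trend was not tested.

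**Figure D2:**
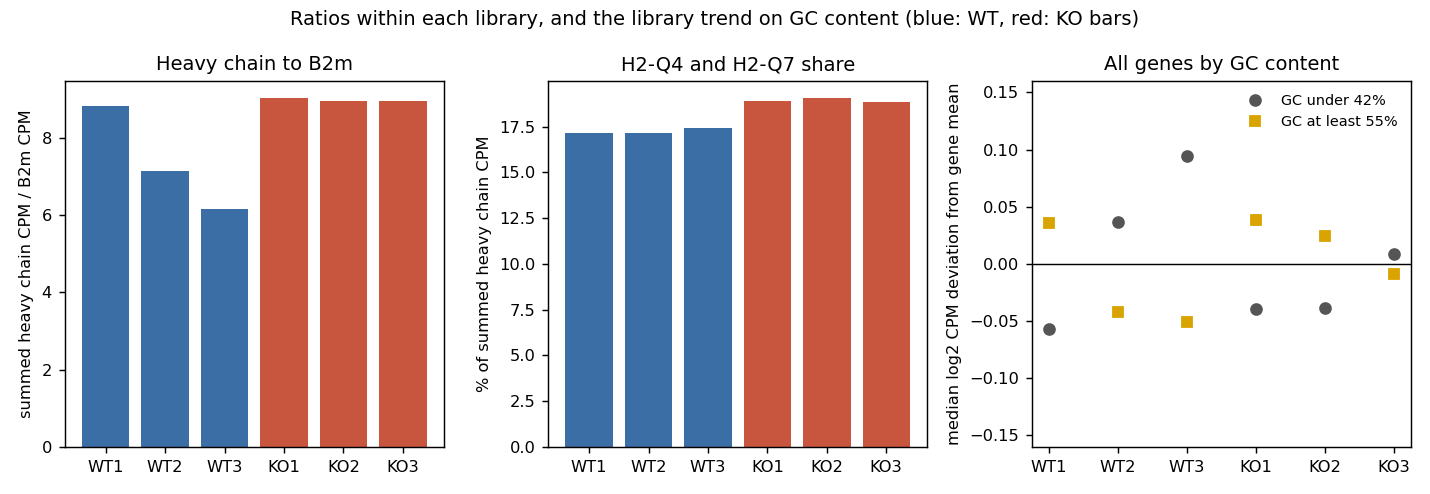
Left, summed CPM of the 5 heavy chains over B2m CPM in each library, middle, H2-Q4 and H2-Q7 as a percentage of the summed heavy chain CPM, with WT bars in blue and KO bars in red, and right, median log2 CPM deviation from the gene mean for genes of low GC content (under 42%, gray circles) and high GC content (at least 55%, yellow squares). The ratio to B2m ranges from 6.14 to 8.81 in WT and from 8.95 to 9.01 in KO, and the GC trend of WT library 1 has the sign seen in KO libraries 1 and 2.

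The genes that bring peptides into the endoplasmic reticulum were not called changed. Tap1 had 527, 480 and 455 CPM in WT and 480, 487 and 473 CPM in KO, a log2 change of -0.02 with SE 0.046 (adjusted p = 0.775, edgeR). Tap2 had 459, 407 and 383 CPM in WT and 437, 431 and 427 CPM in KO, a log2 change of 0.05 with SE 0.054 (adjusted p = 0.561, edgeR). The KO values of both genes lay inside the WT range. Without WT library 1, Tap2 was called higher, at a log2 change of 0.12 (adjusted p = 0.00738, edgeR). The ratio of Tap1 to Tap2 was lower in each KO library, at 1.17 ± 0.021 in the controls and 1.11 ± 0.016 in KO (SD, n = 3 each, two-sided exact permutation p = 0.1, the smallest possible). Of all single genes tested, 19.1% had every KO library below every WT library, and the share among ratios of 2 genes was not counted. Tapbp, the chaperone tapasin, had 562, 512 and 495 CPM in WT and 502, 517 and 488 CPM in KO, with overlap and a log2 change of -0.06 with SE 0.044 (adjusted p = 0.391, edgeR). Nlrc5, the transactivator of class I genes, had 578, 552 and 524 CPM in WT and 522, 537 and 525 CPM in KO. Its groups overlapped, and the log2 change was -0.06 with SE 0.038 (adjusted p = 0.265, edgeR). Without WT library 3, Nlrc5 was called lower, at a log2 change of -0.10 (adjusted p = 0.045, edgeR). For each of the 10 members, the SD between the 3 KO libraries was smaller than that between the 3 WT libraries. The WT libraries also differed more from each other over the whole table. There a chi-square statistic per gene between 2 libraries was 17.0 to 41.2 within WT and 9.98 to 13.1 within KO. The share of all genes with a smaller SD in KO was not counted.

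The order of the members by level was compared per kb of exon, since a longer transcript collects more counts. In WT, B2m stood at 1886 CPM per kb, H2-K1 at 1859 and H2-D1 at 1484. The ratio of H2-K1 to B2m per kb was 0.998 ± 0.18 in the controls and 1.19 ± 0.0064 in KO (SD, n = 3 each, two-sided exact permutation p = 0.2). By this measure the 2 genes could not be ordered in WT, where library 1 had a ratio of 1.19, and H2-K1 was above B2m in all 3 KO libraries. H2-Q4 followed at 388 CPM per kb and H2-Q7 at 239, and then H2-T23 at 162, Tapbp at 144, Tap2 at 110, Tap1 at 89.0 and Nlrc5 at 64.9. In KO, the heavy chains that rose stood at 2104 CPM per kb for H2-K1, 1705 for H2-D1, 482 for H2-Q4 and 310 for H2-Q7. By CPM, H2-K1 ranked 4 and H2-D1 ranked 5 among all genes in the table.

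**Figure D3:**
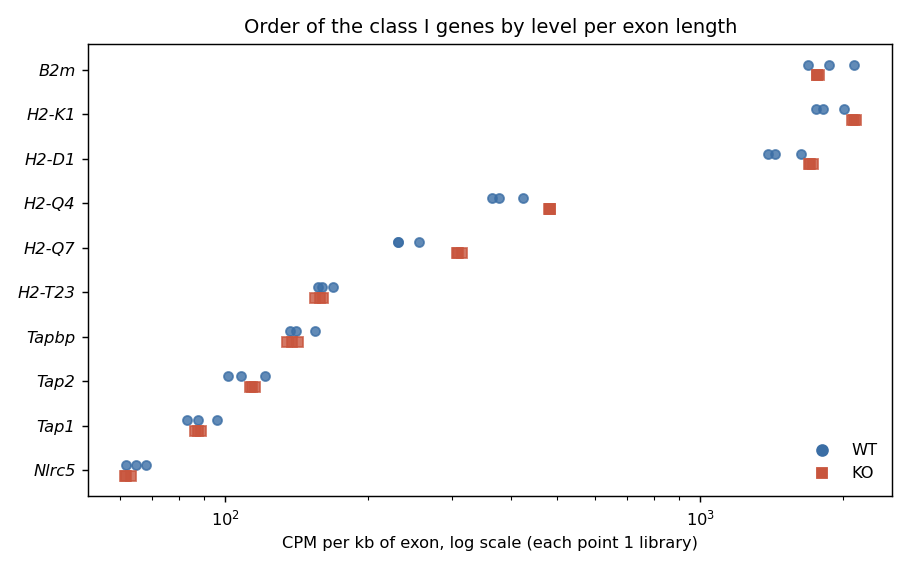
CPM per kb of exon of each member on a log axis, with WT libraries as blue circles and KO libraries as red squares, and genes ordered by their WT mean. H2-K1, H2-D1 and B2m lie above the remaining members by a wide gap, H2-Q4 and H2-Q7 come next, and Nlrc5 is lowest at 64.9 in WT.

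The wider pathway was followed with lists of genes of known roles, also chosen with earlier results of these data known. The counts in each list stand beside 12% of all genes called higher and 12.1% called lower. Of 24 other class I and class I-like heavy chains, 15 could be tested, of which 4 rose and 1 fell, with a median log2 fold change of 0.09. H2-Q6, a nonclassical heavy chain, rose from 547 ± 28.5 to 750.0 ± 5.42 CPM (SD, n = 3 each), a log2 fold change of 0.45 (edgeR adjusted p = 1.68e-06), without overlap. H2-Q2 (0.43), H2-Q10 (0.33) and H2-T22 (0.14) rose as well on the log2 scale, while H2-T24 fell by 0.18, a call lost without WT library 2, KO library 1 or KO library 2. H2-Q6 and H2-Q10 share sequence with H2-Q7, so their reads and those of H2-Q7 may not be independent. H2-Q1 and H2-M3, the most abundant of those not called, had log2 fold changes of 0.06 and -0.05.

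Genes for peptide supply moved in both directions, with 3 of 15 higher, 5 lower and a median log2 fold change of -0.02. Of all genes tested, 12% were called higher and 12.1% lower. The 3 inducible catalytic subunits of the immunoproteasome fell. Psmb9 had 140, 136 and 143 CPM in WT and 120, 113 and 113 CPM in KO. Its groups did not overlap, with a log2 fold change of -0.27 (edgeR adjusted p = 0.000144). Psmb10 fell by 0.19 and Psmb8 by 0.12 on the log2 scale. Psme1, which encodes a subunit of the PA28 proteasome activator, fell by 0.12. Psmb8 and Psme1 were named after their values were seen. The peptidase gene Tpp2 fell by 0.20. Higher were Psmb6 (log2 fold change 0.24), whose product occupies the place of the PSMB9 subunit in the constitutive proteasome, the aminopeptidase gene Npepps (0.17) and Psme3 (0.13), whose call was lost without any 1 KO library, while Psme2 (-0.06) and Pomp (-0.02) were not called. Without WT library 2 or KO library 2 the list held 3 lower genes, as Psmb8 and Psme1 lost their calls, and Psmb8 also lost its call without WT library 3 or KO library 3.

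Of 9 genes for loading and folding in the endoplasmic reticulum, 1 fell and none rose, with a median log2 fold change of -0.03. The share that fell is near the 12.1% of all genes called lower. Pdia3, the ERp57 disulfide isomerase of the loading complex, fell by 0.11 (edgeR adjusted p = 0.0324), a call that was lost when any library other than WT library 1 was left out. Calr and Ganab had log2 fold changes of 0.09 and 0.09 and were not called.

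Among 16 transcription regulators of class I genes, 1 rose and 4 fell, with a median log2 fold change of -0.03. Over all genes tested, the shares called were 12% higher and 12.1% lower. Stat2, which carries type I interferon signals to the nucleus together with Irf9, had 137, 138 and 138 CPM in WT and 112, 114 and 112 CPM in KO. The groups were far apart relative to their spread, with a log2 change of -0.29 with SE 0.032 (adjusted p = 2.09e-05, edgeR). Irf9 fell by 0.15, without overlap between the groups. Irf8 fell by 0.20 and Ezh2, a histone methyltransferase, by 0.13, the latter call being lost without any library other than WT library 1. Rela, an NF-kappaB subunit, was the gene that rose, with a log2 fold change of 0.19 (edgeR adjusted p = 0.000857). Nfkb1 (0.07) and Irf1 (0.04) were not called.

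In the list of interferon receptor signaling, 4 of 10 genes rose and none fell, with a median log2 fold change of 0.07. Beside this stand 12% of all genes called higher and 12.1% called lower. Ifng, the cytokine, rose from 8.94 ± 0.918 to 14.6 ± 1.12 CPM (SD, n = 3 each), a log2 change of 0.70 (adjusted p = 4.45e-05, edgeR). Its receptor chain Ifngr2 rose by 0.41, the kinase gene Jak2 by 0.18 and the feedback inhibitor Socs3 by 0.31 on the log2 scale. Jak1 (0.06) and Ifnar1 (0.05) were not called.

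**Figure D4:**
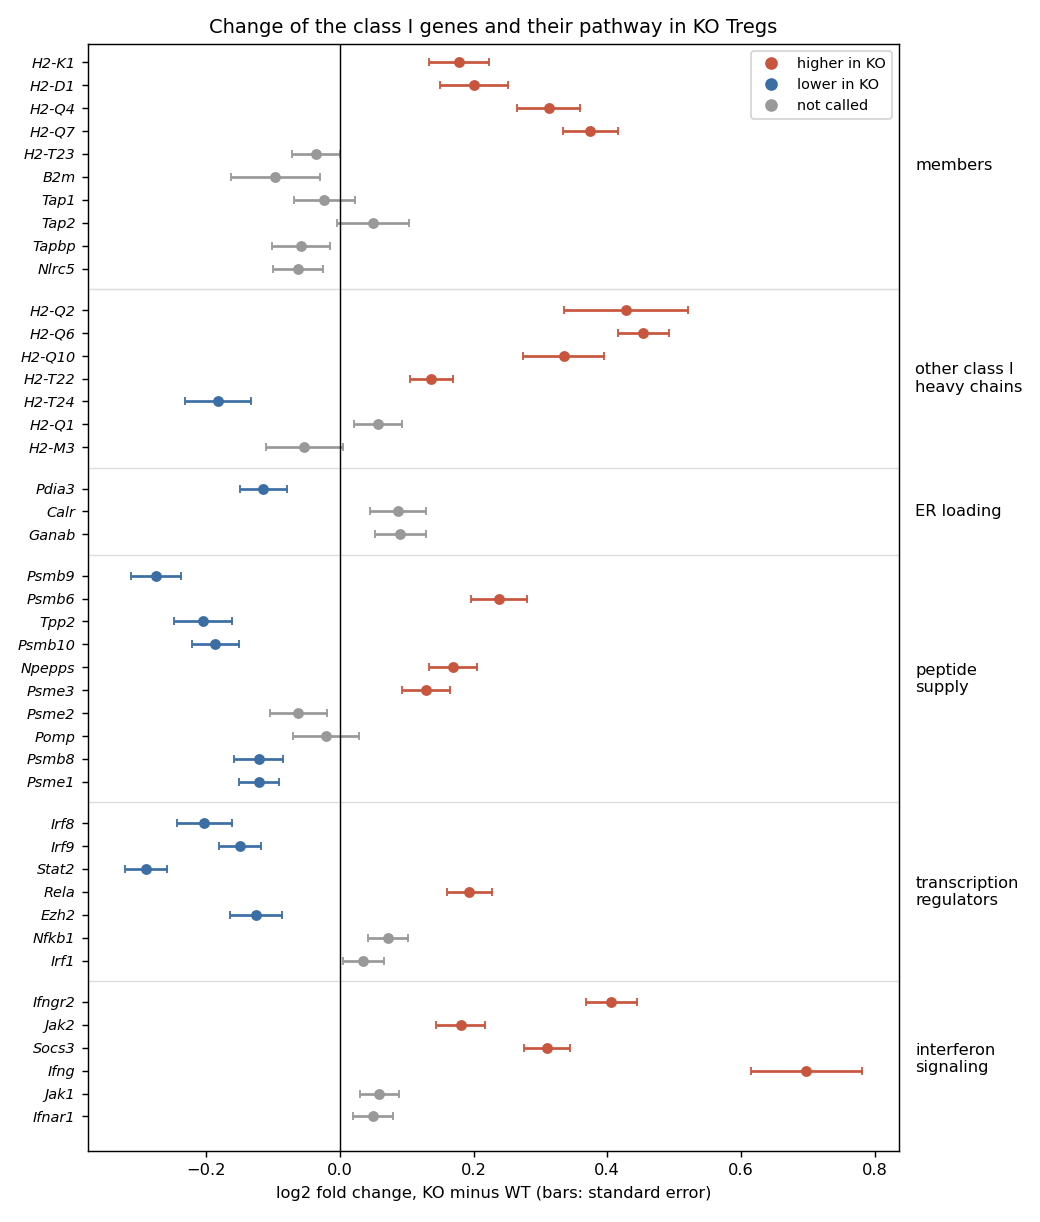
Log2 fold change (KO minus WT) with standard error for the 10 members and for the named genes of 5 pathway lists, in red for genes called higher, in blue for genes called lower and in gray for genes not called. The 4 called members lie at 0.18 to 0.37, Stat2 at -0.29 and Psmb9 at -0.27.

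MHC class II genes were compared because they share regulators with class I genes. Of 11 genes, 9 fell and 1 rose, with a median log2 fold change of -0.57, beside 12.1% of all genes called lower and 12% called higher. Ciita, the class II transactivator related to Nlrc5, fell by 1.34, H2-Ab1 by 0.96, H2-Aa by 0.90, H2-Eb1 by 0.78, H2-DMb2 by 0.57 and H2-DMb1 by 0.49 on the log2 scale, while H2-DMa (0.07) was not called. H2-Oa, named after its value was seen, was the gene that rose (0.35). H2-Ab1 fell from 37.5 ± 2.10 to 19.3 ± 0.385 CPM (SD, n = 3 each). Markers of other cells moved with the class II genes. All 5 B cell markers were lower, and summed to 667 to 726 CPM in WT and 507 to 513 CPM in KO, most of it Ighm (649.9 and 489.6 CPM on average). Of 6 myeloid markers Lyz2, Itgam, S100a8 and S100a9 were lower (46.2 to 50.8 against 26.7 to 29.1 CPM summed), of 5 dendritic cell markers Flt3, Itgax and Siglech (8.10 to 9.19 against 5.17 to 5.71 CPM), of 2 plasma cell markers Jchain (12.7 to 15.1 against 5.97 to 6.82 CPM) and of 5 red cell markers all, Hba-a1 the most abundant (36.5 to 43.4 against 1.81 to 2.31 CPM). The myeloid markers Csf1r and Cd68 were not called. Csf1r had 7.63 to 9.51 CPM in WT and 9.74 to 10.9 CPM in KO, with all KO libraries above all WT libraries (log2 fold change 0.22). CD8 T cell and NK cell markers gave no call (8.34 to 9.71 and 22.4 to 26.2 CPM over all libraries), with Cd8a at 0.306 to 0.594 CPM, and platelet markers were near 0. In bulk samples, fewer cells of a type and less RNA per cell cannot be told apart. The part of these other cells in the class I and class II values was not tested.

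For each of the 4 heavy chains that rose, all KO libraries lay above all WT libraries, which 19.3% of all genes tested did, and no member had all KO libraries below all WT libraries, which 19.1% of all genes did.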

How the data were processed

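RNA of sorted splenic Tregs was sequenced in 3 WT and 3 KO libraries. The deposited table holds raw counts for each gene symbol, with no normalization by the authors. The submitters' processing notes name HISAT2, DESeq2 and mm10, and the methods describe HISAT2 and StringTie for Tregs of Foxp3Cre mice only, so that the counting tool and strand setting behind this table are not given in the sources used here. Of the 32285 rows, 40 repeat a symbol, for which the row with most counts kept the name. Totals were 133283969 to 209041812 counts. In R 4.3.3, edgeR 4.0.16 (TMM, filterByExpr with a minimum of 10, robust quasi-likelihood test, newer method) was fitted on 17307 genes, after being tested on simulated data. A gene was called at adjusted p under 0.05, and also by the study's cutoffs (1.5-fold, P under 0.05, adjusted P under 0.1). Standard errors come from the F statistic. The members and lists were chosen with earlier results of these data known. The text names all members, Zfp335, cell markers and, per pathway list, up to 6 called genes and the 2 most abundant genes not called. Psmb8, Psme1, H2-Oa, Xist and Y-linked genes were added after values were seen, and 1 gene of the regulator list is not reported here. Positions, exon lengths, GC content and shared sequence come from GENCODE (GRCm38), and upstream sequence from RefSeq (GRCm38.p6). The alternatives tried were limma-voom (limma 3.58.1), DESeq2 1.42.0, edgeR's legacy method, other scalings and filters, removal of abundant RNA classes, the replicate block and leaving out each library. Removing trends on exon length or GC content was added after seeing the data.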

Additional observations from a re-analysis of the deposited data

How the results depend on the processing

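The 20 alternatives comprised 16 planned and 4 added after seeing the data. The calls of H2-Q4 and H2-Q7 held in all of them, and no other setting than leaving out a library or removing the GC trend changed the call of a member. Leaving out each library in turn gave 2 to 5 members higher and 0 to 1 lower in KO, a median of -0.0081 to 0.0803, and 1341 to 2495 genes higher and 1399 to 2501 lower overall. The 2 higher members remained without WT library 2, and Tap2 was the added call without WT library 1, at a log2 fold change of 0.12. The lower member was B2m without WT library 1, Nlrc5 (-0.10) without WT library 3 and, with the GC trend removed, Tapbp, so that 1 member was lower in that fit, as it was in the replicate block fit with the GC trend removed. Over the single-library omissions the log2 fold change ranged from -0.0692 to 0.0359 for Tap1, from -0.005 to 0.1248 for Tap2, from -0.108 to 0.0105 for H2-M3 and from -0.0755 to 0.0259 for Pomp, each changing sign. Calr, Ganab, Psme2 and H2-DMa were called in 1 such omission each, Nfkb1 was called by DESeq2, and Psme3 was not called when libraries were scaled by size only. Without the GC correction, the replicate block changed no count of members. Libraries with the same number had deviations correlating at 0.07, -0.03 and 0.00, and were not treated as paired. Depth did not limit the members, which had at least 51565 counts in every library. With 3 libraries a group, exact permutation tests cannot go below 0.1.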
